A study of Sorghum bicolor with 9 samples.

Results

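The 5 genes described here, for cellulose synthase, cellulose synthase-like (CSL) and COBRA-like proteins, were taken from the deposited expression table by their identifiers, out of 40082 loci of which 33115 carry a gene ID. They comprise 1 cellulose synthase (CESA) gene, 2 genes matched to rice CSLF members, 1 gene matched to a rice CSLE member and 1 COBRA-like gene, and each sits alone in its locus. All 5 had been listed as differing between these same stages and as peaking in the pollen stage, and 2 of them (the CSLF3 and CSLF9 matches) are also marked as anther-preferential. Their direction in the pollen stage is therefore fixed by the way they were chosen and is no separate evidence.

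CESA subunits work in complexes of the plasma membrane that spin glucan chains into cellulose microfibrils, and different subunits serve primary and secondary walls. The CSL families are related glycosyltransferases that make other wall glucans. The CSLF family of grasses includes enzymes that make mixed-linkage glucan. CSLC proteins make the backbone of xyloglucan, whereas the product of CSLE proteins is less well established. COBRA-like proteins, many of them held at the cell surface by a glycolipid anchor, influence how cellulose is laid down. Cellulose, hemicellulose and pectin build the intine, which is the inner layer of the pollen wall.

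Anthers of field-grown Sorghum bicolor variety M35-1, with no treatment, were sequenced as total RNA at 3 stages with 3 libraries per stage. Stage A1 is labelled meiotic to tetrad, A2 microspore and A3 pollen. The stages were separated by anther length and whole anthers were taken, so that each sample holds anther wall as well as germ cells although the tissue label reads male gametophyte. Expression is given as FPKM, a fragment count scaled by transcript length and library size, and the 3 replicates of a stage were combined by the authors into 1 value. Hence no value below could be given a replicate error or be tested. The study reports read totals, but the read depth behind a value was not used here. Positions follow the Phytozome sorghum assembly used by the authors, and the table gives a locus span without exons or strand.

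Marker genes of 3 cell types were read first. The summed level of 4 pollen genes (2 OSIPA, OsPLIM2b and OsPCBP matches) was 0.124 FPKM at A1, 0.0793 at A2 and 214 at A3, with 3 of the 4 listed at 0 at A2. Summed over 5 meiosis genes (DMC1, OsMSH4, OsMSH5 and 2 ZEP1 matches) the level was 94.7, 73.5 and 32.6 FPKM, with all 5 highest at A1. For 4 tapetum genes (TDR, TIP2, CYP703A3 and OsPKS2 matches) it was 1517, 3253 and 136 FPKM. These genes had been named from the same libraries. The pollen markers were thus higher, and the meiosis and tapetum markers lower, at the stage where the members were highest, and their part in those differences was not tested. In whole anthers, fewer cells of a type and less RNA per cell cannot be told apart. All 3 A3 libraries carry a project code in their labels that 1 A1 library, 1 A2 library and none of the other 4 libraries carry, and with combined replicates the code and the stage cannot be told apart for a single gene.

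Every member had its highest level in pollen-stage anthers. At all 3 stages the CSLF3 match was the most abundant, followed by the CSLE6 match and the COBRA-like gene. The CESA7 match came next and the CSLF9 match last at A1 and A2, and these changed places at A3. Because FPKM are scaled by transcript length, these levels can be set against each other. The lowest and the highest member were 662-fold apart at A1, 165-fold apart at A2 and 21.6-fold apart at A3. The summed level of the 5 genes was 18.2 FPKM at A1, 11.9 at A2 and 147 at A3, while the median over the 30776 loci that had a gene ID and were above 0 at any stage was 1.61, 1.78 and 2.17 FPKM.

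**Figure D1:**
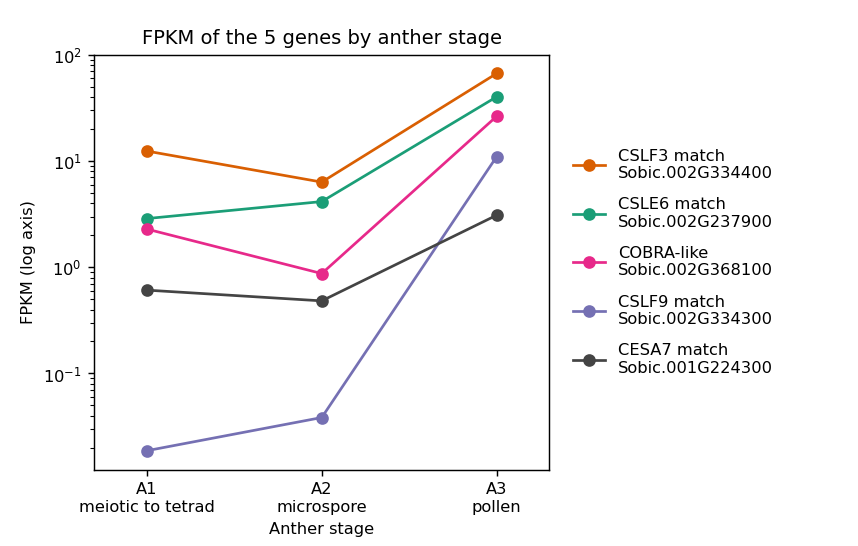
FPKM (log axis) of the 5 genes at the 3 anther stages, each point being the authors' single value for a stage with its 3 replicates combined, so that no error bar can be drawn. All 5 lines are highest at A3, between 3.09 and 66.7 FPKM, and the CSLF9 match starts from 0.0187 FPKM at A1.

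The cellulose synthase gene was Sobic.001G224300.v3.1, matched to rice CESA7 and to Arabidopsis CESA4, both of which are subunits of the secondary wall complex. It lies on chromosome 1 from 21485582 to 21489706. Its level was 0.609 FPKM at A1, 0.482 at A2 and 3.09 at A3, which made it the member with the lowest level at A3. The differences are given as log2 of FPKM after adding 0.5, which understates changes of scarce transcripts. On this scale it was 1.87 higher at A3 than at A2 (3.65-fold) and 1.69 higher at A3 than at A1 (3.24-fold). Both were the smallest differences among the members. It held 73.9% of its level summed over the stages at A3, where 53.9% of loci lay below it, against 39.3% at A2 and 42.3% at A1.

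The CSLF3 match Sobic.002G334400.v3.1, on chromosome 2 from 70267948 to 70271763, was the most abundant member at every stage, with 12.4 FPKM at A1, 6.33 at A2 and 66.7 at A3. Its A3 level exceeded that of 94.1% of loci, against 74.2% at A1 and 64.5% at A2. The log2 difference was 3.30 for A3 over A2 (9.84-fold) and 2.38 for A3 over A1 (5.21-fold), the gap between these differences coming from a lower level at A2 than at A1. It was 1.89-fold lower at A2 than at A1. Arabidopsis has no CSLF genes, and the Arabidopsis match of this gene is CSLD5, of a related family.

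The CSLF9 match Sobic.002G334300.v3.1 lies beside it on chromosome 2, from 70255993 to 70266179, with 1768 bases between the loci. It had 0.0187 FPKM at A1, 0.0385 at A2 and 10.99 at A3, so that 99.5% of its level summed over the stages was found at A3. At A1 and A2 it ranked above only 19.2% and 23.3% of loci, and at A3 above 71.1%. The log2 difference was 4.41 for A3 over A2 (21.3-fold) and 4.47 for A3 over A1 (22.1-fold). Both values depend on the amount added before the logarithm, since the early levels lie far below 0.5 FPKM. With 0.1 FPKM added the A3 over A2 difference was 6.32, and with 1 FPKM added it was 3.53. The neighbouring CSLF3 match was 662-fold more abundant than the CSLF9 match at A1, 165-fold at A2 and 6.07-fold at A3.

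The CSLE6 match Sobic.002G237900.v3.1, on chromosome 2 from 62824503 to 62829882, had 2.87 FPKM at A1, 4.15 at A2 and 40.2 at A3. On the scale with 0.5 FPKM added it had the largest upward step of the members between the early stages, with a log2 difference of 0.46 for A2 over A1 that 92.7% of loci stayed below. Its A3 level was 8.76-fold above A2 (log2 3.13) and 12.1-fold above A1 (log2 3.59). Its Arabidopsis match is CSLE1. It ranked above 55.6% of loci at A1, 59.2% at A2 and 89.6% at A3.

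The COBRA-like gene Sobic.002G368100.v3.1, matched to a rice COBRA gene and to Arabidopsis COBRA-like 1, lies on chromosome 2 from 72786472 to 72790903. Its level was 2.29 FPKM at A1, 0.872 at A2 and 26.4 at A3. At A3 it was 19.6-fold above A2 (log2 4.29) and 9.64-fold above A1 (log2 3.27). It lay above 53.3% of loci at A1, above 43.5% at A2 and above 84.4% at A3. Set side by side, the A3 over A2 differences of the COBRA-like gene and the CSLF9 match were close, and their order turned with the amount added (3.87 for the COBRA-like gene and 3.53 for the CSLF9 match after adding 1 FPKM).

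All 5 members were at least 2-fold higher at A3 than at A2, where 16.5% of all loci were, and all 5 were at least 2-fold higher at A3 than at A1, where 17.4% of loci were. Since the members had been listed as pollen-stage genes, nothing is read from these counts. Their median log2 difference was 3.30 for A3 over A2 and 3.27 for A3 over A1, with a median over all loci of 0.01 in both comparisons.

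Between microspore and meiotic anthers the members differed among themselves. The COBRA-like gene was at least 2-fold lower at A2 than at A1, with a log2 difference of -1.02, a difference of a size and direction found in 0.741% of all loci. The CSLF3 match came next at -0.92, just inside the 2-fold limit, and 0.933% of loci had a lower value. The CESA7 match differed by -0.17 and the CSLF9 match by 0.05. The CSLE6 match, at 0.46, was not among the 2.91% of loci that were at least 2-fold higher at A2. The COBRA-like value moved with the amount added to the FPKM, to -1.30 with 0.1 FPKM added and to -0.81, under the limit, with 1 FPKM added, and the number of loci at least 2-fold lower was 548 with 0.1 FPKM added in place of 228. Whether any of these early differences exceeds the spread between replicates cannot be told from combined values. The study placed all 5 members in a group that it describes as uniform from A1 to A2 and increased at A3. Their early course was thus also part of how they had been grouped.

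**Figure D2:**
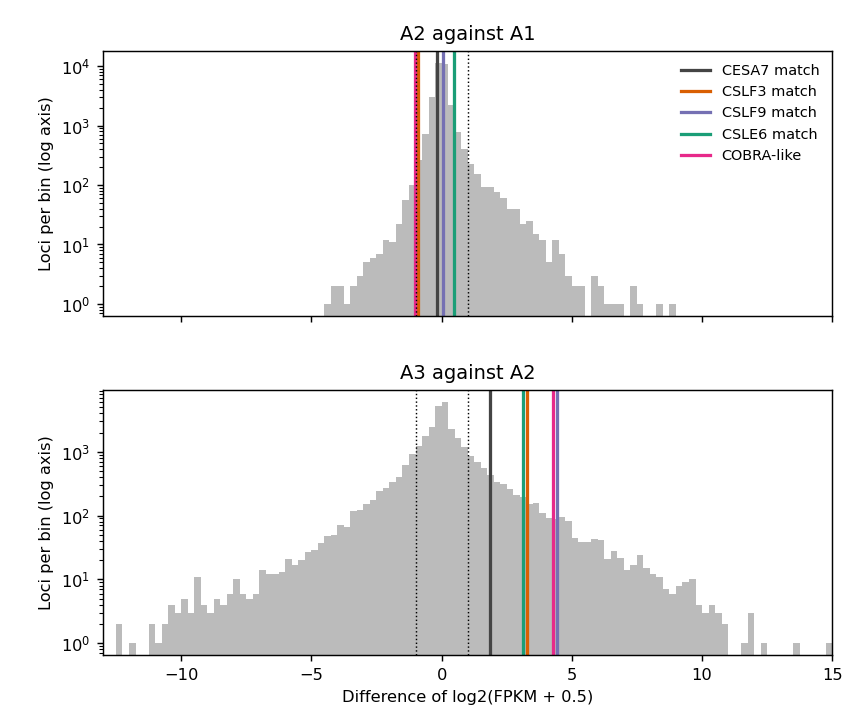
Differences of log2(FPKM + 0.5) for 30776 loci (grey, number of loci per bin on a log axis) for A2 against A1 and for A3 against A2, with the 5 genes as coloured lines and the 2-fold limits dotted. For A2 against A1 the genes spread from -1.02 to 0.46, and for A3 against A2 they lie between 1.87 and 4.41.

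The CSLF3 and CSLF9 matches are neighbours in a cluster of 4 CSLF-matched genes that spans 41887 bases, from 70246625 to 70288511 on chromosome 2. On its left end Sobic.002G334200, a further CSLF3 match, had 0.247 FPKM at A1, 0.156 at A2 and 1.18 at A3. On its right end Sobic.002G334500, likewise a CSLF3 match, had 0.168, 0.198 and 3.28 FPKM. All 4 genes were at least 2-fold higher at A3 than at A2, and all 4 had been listed as pollen-stage genes of these libraries. A locus without a gene ID between Sobic.002G334200 and the CSLF9 match, from 70252752 to 70253065, had 0.0453 FPKM at A1, was listed at 0 at A2 and had 1.099 FPKM at A3.

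The loci that border the cluster had other courses. Neither has a description here, since the annotation used holds only genes listed as differing between stages. Whether either is a further CSLF copy is not known from it. The contrast in course may therefore follow from how the genes were listed. Sobic.002G334100 on the left was at 0.343 FPKM at A1, 0.444 at A2 and 0.0683 at A3, and Sobic.002G334600 on the right at 14.9, 23.96 and 14.7 FPKM. Their log2 differences of A3 over A2 were -0.73 and -0.68, against 1.36 to 4.41 within the cluster. Genes of such a cluster resemble each other in sequence, and reads shared between copies could have been divided among them in the authors' quantification. The split of the signal among the 4 genes is uncertain to that extent.

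**Figure D3:**
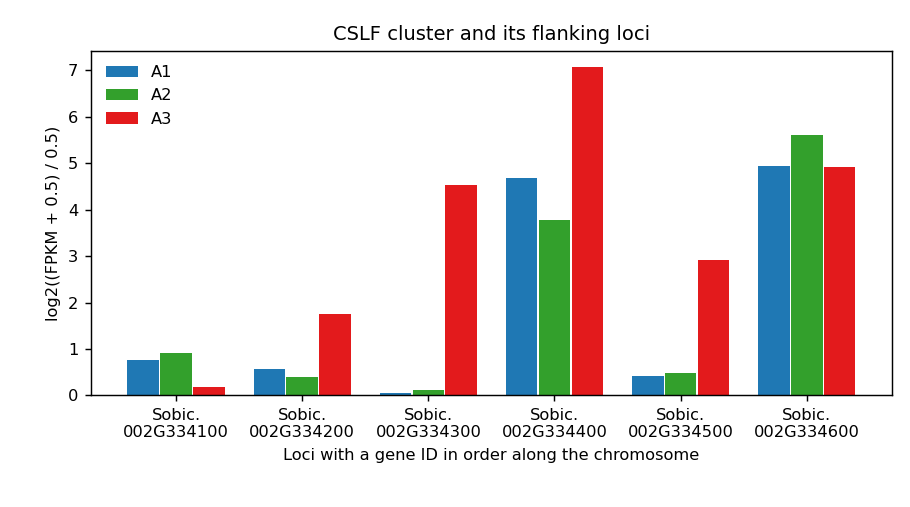
Level on the scale log2((FPKM + 0.5)/0.5) at A1, A2 and A3 for the 4 CSLF-matched genes and the next locus with a gene ID on either side, in their order along chromosome 2 (not to distance). The red A3 bar is the tallest in the 4 inner genes, whereas Sobic.002G334100 is lowest at A3 and Sobic.002G334600 is highest at A2.

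Another CSLF3 match, Sobic.002G171200, lies away from the cluster on chromosome 2 from 54243659 to 54248595, with 0.0503 FPKM at A1, 0.0498 at A2 and 3.88 at A3. Over the 5 CSLF-matched genes, the summed level was 12.9 FPKM at A1, 6.77 at A2 and 86.04 at A3. The CSLF3 match Sobic.002G334400 supplied 96.2% of it at A1, 93.5% at A2 and 77.5% at A3. The CSLF9 match supplied 0.145%, 0.568% and 12.8%. Within this sum, which leaves out any CSLF gene on other chromosomes or not listed as differing, the part of Sobic.002G334400 was smaller at A3, where Sobic.002G171200 held 4.51% and Sobic.002G334500 held 3.81%.

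**Figure D4:**
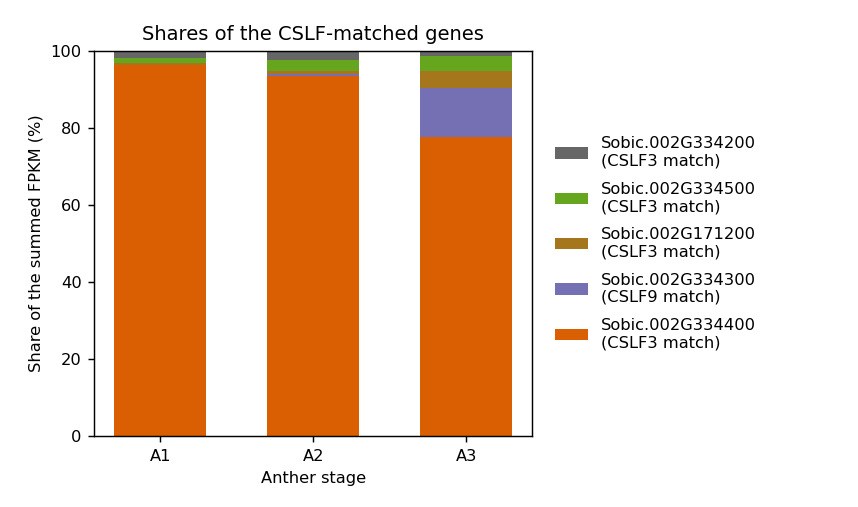
Share (%) of each of 5 CSLF-matched genes in their summed FPKM at each stage, the sums being 12.9 FPKM at A1, 6.77 at A2 and 86.04 at A3. Sobic.002G334400 (orange) fills 96.2%, 93.5% and 77.5% of the bars, and the CSLF9 match (purple) reaches 12.8% at A3.

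The annotation used here covers 1594 genes of chromosomes 1 and 2, all of them listed as differing between stages, and it names 10 genes of cellulose synthesis, the CSL families or COBRA, the 5 members included. Of the other 5, 3 were at least 2-fold higher at A3 than at A2 (the CSLF3 matches above), 1 was at least 2-fold lower and 1 lay within 2-fold, beside 16.5% of all loci higher and 12.6% lower. The CSLC10 match Sobic.002G022700 was the lower one, with 15.2 FPKM at A1, 13.5 at A2 and 1.56 at A3 and a log2 difference of -2.76 for A3 over A2. The CESA6 match Sobic.002G094600 had 26.003 FPKM at A1, 19.5 at A2 and 10.1 at A3, with log2 differences of -0.92 for A3 over A2 and -1.33 for A3 over A1.

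The pair of CESA genes thus differed in direction between A2 and A3, although the CESA6 match stayed within 2-fold there. The CESA7 match was at 0.0234 of the CESA6 match at A1, 0.0248 at A2 and 0.307 at A3. Even at A3 the CESA6 match was 3.25-fold more abundant, and at A1 and A2 it was 42.7-fold and 40.4-fold more abundant. In Arabidopsis, CESA6 is a subunit of the primary wall complex.

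**Figure D5:**
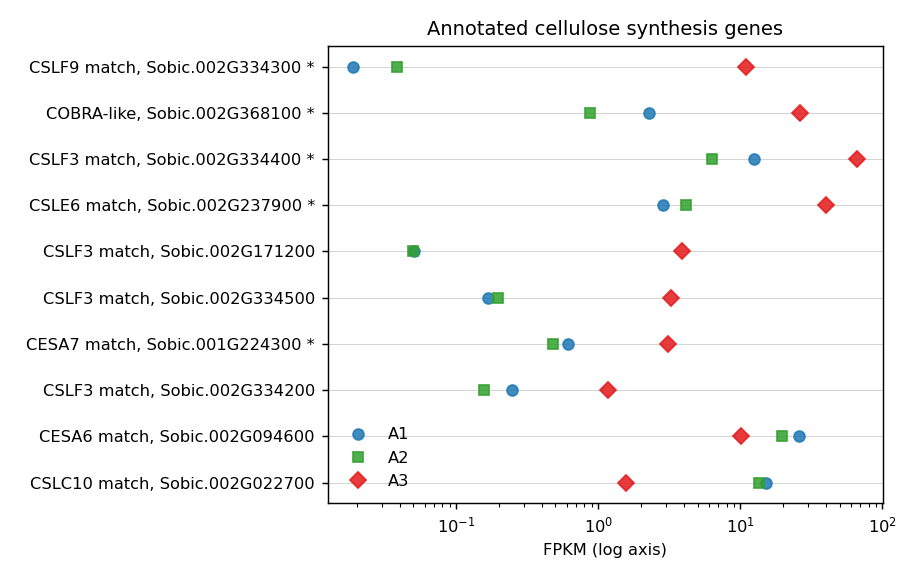
FPKM (log axis) of the 10 annotated genes at A1 (blue circles), A2 (green squares) and A3 (red diamonds), ordered by the log2 difference of A3 over A2, with the 5 members marked by an asterisk. In 8 genes the red diamond lies furthest right, and in the CESA6 and CSLC10 matches it lies furthest left.

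Other wall genes of the same annotation were divided. Of 14 genes for precursor synthesis, callose, arabinose, glucan hydrolysis and xyloglucan, 8 were higher at A3 than at A2 by 2-fold or more (16.5% of all loci) and 6 were lower by as much (12.6% of all loci). The median log2 difference was 1.19 against 0.01 over all loci. The list was drawn from genes already found to differ, so its counts are no independent evidence. The callose synthase gene Sobic.001G521500 (callose is a further wall glucan) had 9.85 FPKM at A1, 9.33 at A2 and 189 at A3. Its log2 difference of 4.27 for A3 over A2 was close to that of the COBRA-like gene. The UDP-glucose epimerase gene Sobic.001G372500, whose enzyme converts UDP-glucose and UDP-galactose, had 90.3, 77.8 and 340 FPKM. The widest difference in the list belonged to the beta-glucosidase gene Sobic.001G089300, with 0.0400 FPKM at A1, 0.0301 at A2 and 279 at A3.

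Opposite in direction were the rhamnose synthesis genes Sobic.001G416600 (116, 110.5 and 33.2 FPKM through A1, A2 and A3) and Sobic.001G418000 (122, 99.99 and 30.3 FPKM). The UDP-arabinopyranose mutase gene Sobic.002G368600, whose rice counterpart UAM3 acts in pollen wall formation, was at 69.2 FPKM at A1, 61.5 at A2 and 10.3 at A3. The 3 xyloglucan endotransglucosylase genes, whose enzymes cut and rejoin xyloglucan, were split. Sobic.001G179400 was at 7.35, 8.56 and 0.0363 FPKM, whereas Sobic.002G194500 (0.359, 0.330 and 2.37 FPKM) and Sobic.002G324100 (0.125, 0.187 and 0.997 FPKM) were highest at A3. None of the 14 genes differed by 2-fold or more between A2 and A1, their log2 differences lying between -0.28 and 0.69. Early changes of that size were rare over all loci (2.91% upward, 0.741% downward), so this count says little about the list.

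For each member the genes with the most similar course were sought among 1377 loci with a described gene. Similarity was the Euclidean distance of the 3 stage values on the scale log2(FPKM + 0.5). Descriptions come from the annotation, which covers only genes of chromosomes 1 and 2 listed as differing. Over all loci the smallest distance was 0.072 for the CESA7 match, 0.071 for the CSLF9 match and 0.22 for the CSLE6 match. It was 0.33 for the CSLF3 match and 0.39 for the COBRA-like gene. The genes named below are thus the nearest of this search. Only for the CSLE6 match is the first of them also the nearest over all loci. The CSLF9 match was nearest to the homeobox gene Sobic.001G525900 (distance 0.08, with 0.0416 FPKM at A1, 0.0331 at A2 and 10.6 at A3) and to the cytochrome P450 gene Sobic.001G082300 (0.15). Nearest to the CESA7 match were the ROTUNDIFOLIA-like gene Sobic.002G163600 (0.11) and the programmed cell death 2 domain gene Sobic.001G174800 (0.24). The CSLE6 match lay close to the acyltransferase gene Sobic.002G205300 (0.22) and the thiamine synthesis gene Sobic.001G138000 (0.27).

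The other 2 members lay further from their nearest described genes. The CSLF3 match lay 0.43 from the glutathione S-transferase gene Sobic.001G412800, at 9.38 FPKM at A1, 5.51 at A2 and 66.2 at A3, and 0.45 from the ZIM motif gene Sobic.002G196200. The COBRA-like gene lay 0.52 from the phosphatase family gene Sobic.002G254700 and 0.53 from the purple acid phosphatase gene Sobic.001G442300. Over all 30776 loci, 641 (2.08%) lay within a distance of 1 of the CESA7 match and 402 (1.31%) of the CSLF9 match. The number was 145 (0.471%) for the CSLE6 match, 91 (0.296%) for the CSLF3 match and 67 (0.218%) for the COBRA-like gene. These numbers depend on level. The early values of the CESA7 and CSLF9 matches lie near or below the 0.5 FPKM added, where the scale draws scarce loci together. A course of 3 values is a coarse description.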

How the data were processed

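Adapters and low-quality bases were removed, rRNA reads were discarded with Bowtie2 2.2.9, and the rest were aligned with STAR, quantified with StringTie 1.3.3b and compared with cuffdiff, per the submitters' processing notes and the methods of the study. The authors combined the 3 replicates of a stage and deposited a single FPKM for it at each locus. A gene could therefore not be tested between stages, and the limma fit planned for values per replicate was not run. Depth per library was not used here. Here, log2 values were taken after adding 0.5 FPKM and a difference was called at 2-fold, over the 30776 loci that had a gene ID and were above 0 at any stage (python 3.11.15, numpy 2.4.6, pandas 2.3.3). Starts are those deposited plus 1, which met 744 starts of a RefSeq table against 170 without it. That table matched 0 of 34211 gene IDs, so gene matches come from the study's annotation of genes on chromosomes 1 and 2, and no sequence is shown. The fold counting was tested on simulated data. Alternatives were pseudocounts of 0.1 and 1 FPKM, quantile normalization, median-of-ratios scaling and a minimum of 1 for the mean FPKM.

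The 5 genes and all lists were chosen with earlier results of these data known. Named genes were the members, the annotated cellulose synthesis genes, 2 loci on either side of each member, the 2 described genes nearest in course to each member, and those wall genes whose role is stated.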

Additional observations from a re-analysis of the deposited data

How the results depend on the processing

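No paired analysis was possible because the replicates of a stage were combined, and leaving out a replicate or fitting a replicate block could not be run for the same reason. Of the 15 log2 differences of the members, all kept their direction and their side of the 2-fold limit with 0.1 FPKM added. The same held with median-of-ratios scaling and with quantile normalization. With 1 FPKM added, 14 kept both and the COBRA-like difference of A2 over A1 was -0.81. Keeping only loci of a mean FPKM of at least 1 leaves a member's own values untouched, so it could not move these differences. With 0.1 FPKM added, 1419 loci reached 2-fold upward and 548 reached it downward at A2 against A1, in place of 896 and 228. Ranks within a stage were the same under both scalings, which keep the order of loci within a stage by construction. Among the 18382 loci with a mean of at least 1 FPKM, the share of loci below a member at A1, A2 and A3 was 8.57%, 6.63% and 22.8% for the CESA7 match, 56.8%, 40.6% and 90.2% for the CSLF3 match, 1.59%, 2.60% and 51.7% for the CSLF9 match, 25.6%, 31.6% and 82.7% for the CSLE6 match and 21.8%, 8.87% and 73.9% for the COBRA-like gene. These shares were lower by construction, since scarce loci were left out. Read depth was not used, which limits the CSLF9 match most, with both early values under 0.04 FPKM.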

Other observations

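Beyond the CSLF cluster, the loci next to the members had mixed courses. Over the 14 loci above 0 among the nearest neighbours of the members, CSLF matches left out, 4 were at least 2-fold higher at A3 than at A2, 0 were at least 2-fold lower and 10 lay within 2-fold, beside 16.5% of all loci higher and 12.6% lower. Of the 14, 5 have the same interval as another locus in the table, so that reads of such loci may not be told apart. Next but 1 to the CSLE6 match, Sobic.002G237750 had 0.906 FPKM at A1, 1.90 at A2 and 34.1 at A3 in an interval shared with another gene, while Sobic.002G237800, which lies between them, had 5.16, 5.89 and 3.13 FPKM. A further 3 neighbours of the COBRA-like gene were likewise at least 2-fold higher at A3, namely the aspartic proteinase gene Sobic.002G367900 (2.46, 2.04 and 9.05 FPKM), Sobic.002G368000 (10.8, 9.52 and 24.01 FPKM) and Sobic.002G368300 (0.0443, 0.212 and 1.099 FPKM). The last of these has the same interval as Sobic.002G368200.

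Within 100000 bases of each member, the loci with a gene ID that were at least 2-fold higher at A3 than at A2 numbered 4 of 22 for the CESA7 match, 4 of 22 for the CSLF3 match, 4 of 24 for the CSLF9 match, 7 of 26 for the CSLE6 match and 6 of 25 for the COBRA-like gene, beside 16.5% of all loci. Loci at least 2-fold lower numbered 4, 3, 3, 2 and 3 in the same order, beside 12.6% of all loci. The windows of the CSLF3 and CSLF9 matches overlap and count each other. Both also count the cluster genes Sobic.002G334200 and Sobic.002G334500 among their higher loci, which had been listed as pollen-stage genes.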
